A study of Mus musculus with 6 samples.

Results

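The expression of 10 transcription factor genes was followed that specify, maintain or mature the B lymphocyte lineage, in irradiated and opposite femurs of mice. They were taken by symbol as Pax5, Ebf1, Tcf3, Foxo1, Ikzf1, Ikzf3, Pou2af1, Bach2, Spib and Lef1, and all 10 were found among the 43346 genes of the deposited table. Gene counts came from 6 RNA-seq libraries of C57BL/6 mice, an inbred laboratory strain, aged 4 months. The right distal femur received a focal X-ray dose of 24 Gy at 6.6 Gy per minute over 5 mm of metaphysis, the trabecular end of the shaft, and gave the radiated group (n = 3). The left femur of irradiated mice, which was not targeted, gave the non-radiated group (n = 3), so that no library came from an animal that had received no beam. Bone was homogenised after muscle had been removed, on day 21, a time chosen by the submitters because bone loss was seen at day 28. The labels do not say whether the libraries of a group came from separate mice, so p-values measure the spread between these samples, which may be partly technical.

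B cells develop in the bone marrow from lymphoid progenitors under a stepwise network of transcription factors. The E proteins encoded by Tcf3, with Foxo1 and the Ikaros protein encoded by Ikzf1, prime progenitors and switch on Ebf1. Ebf1 and Pax5 then activate the genes of the B-cell receptor complex and hold the cells in the lineage, while Lef1, Spib, Bach2, Ikzf3 and Pou2af1 act in proliferating precursors or in later maturation. Several of these genes are also active elsewhere: Ikzf1 in most blood cells, Lef1 and Bach2 in T cells, Spib in plasmacytoid dendritic cells, and Ebf1 and Foxo1 in stromal cells and adipocytes.

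Stretches upstream of the start site are shown for Pax5, Spib and Pou2af1, members that rose. The RefSeq start of each lies at the edge of or outside the gene as the table gives it. Foxo1 and some of the starts of Lef1 meet the same terms and are not shown. RefSeq start-site windows (build GRCm38.p6, 250 bases before to 50 after a start) were found for 9 of the 10 members, all but Ikzf3. Some of these members had more than 1 window, 14 in all. A member is counted below by a match in any of its windows, so counts of members and shares of windows are not like for like. The 250 bases before the start are printed 5′ to 3′ on the gene's own strand, with matches to any of the 9 motifs searched in capitals.
Pax5, chr4:44710695-44710944, minus strand: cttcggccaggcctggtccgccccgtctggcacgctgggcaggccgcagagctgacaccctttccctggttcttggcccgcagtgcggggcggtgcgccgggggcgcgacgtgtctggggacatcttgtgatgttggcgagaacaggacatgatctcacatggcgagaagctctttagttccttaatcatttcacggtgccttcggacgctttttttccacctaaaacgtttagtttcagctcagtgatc
Spib, chr7:44532072-44532321, minus strand: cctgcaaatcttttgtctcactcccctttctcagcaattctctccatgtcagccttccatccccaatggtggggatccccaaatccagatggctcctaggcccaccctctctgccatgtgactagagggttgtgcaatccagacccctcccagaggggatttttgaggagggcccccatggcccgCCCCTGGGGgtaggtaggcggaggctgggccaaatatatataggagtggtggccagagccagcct
Pou2af1, chr9:51213440-51213689, plus strand: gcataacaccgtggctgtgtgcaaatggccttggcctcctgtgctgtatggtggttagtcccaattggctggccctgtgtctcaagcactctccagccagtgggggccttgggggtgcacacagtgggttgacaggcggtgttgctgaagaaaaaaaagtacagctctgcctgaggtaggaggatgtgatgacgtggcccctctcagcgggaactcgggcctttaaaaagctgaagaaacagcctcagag
The capitals in the Spib stretch are 2 overlapping matches of CCCNNGGG, the core of the site bound by Ebf factors, at positions -65 and -64 from the start. That core was found on either strand in the windows of 3 of the 9 members (Foxo1, Ikzf1 and Spib) and in 13.7% of all 32851 windows of the same length. The Ikaros core TGGGAA was present for Ebf1 and Lef1, against 25.6% of all windows. The E-boxes CAGCTG and CACCTG were each found for Lef1 alone, against 16.3% and 20.2% of windows, and the Lef/Tcf site CTTTGAA for Ebf1 alone, against 5.14%. None of the 9 members had the octamer ATGCAAAT (1.74% of windows), the forkhead site TGTTTAC (3.65%), the Ets site GAGGAAGT (3.20%) or the Bach and Maf core TGAGTCA (5.20%). A match is only a match of letters in a window.

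Total gene counts ran from 34034251 to 48708383 per library, and the members held between 409 and 19406 counts in each. In non-radiated library 2 a single row, AY036118, took 32.9% of the counts, against 0.321% to 5.61% in the other libraries, which lowered the depth for all other genes there. Skeletal muscle markers summed to 167 to 342 CPM in the non-radiated libraries and to 753, 2479 and 196 CPM in radiated libraries 1, 2 and 3 (CPM are counts scaled to library size, here with edgeR's TMM factors).

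Of the 10 members 8 rose in the radiated femurs by edgeR's quasi-likelihood test with Benjamini-Hochberg adjustment over 18757 genes, none fell, and Tcf3 and Ikzf1 did not pass the threshold of 0.05. Of all genes tested 7.80% passed, 4.56% as higher and 3.24% as lower. By size the changes ran from Lef1 (1.99-fold), Pou2af1 and Pax5 (1.82-fold each), Ebf1 (1.80-fold) and Bach2 (1.77-fold) through Ikzf3 and Spib (1.58-fold each) to Foxo1 (1.44-fold). The median log2 fold change of the 10 members was 0.74, against 0.00 for all genes tested. Every radiated library lay above every non-radiated library for each of the 10 members, a separation that held in the upward direction for 14.4% of all genes tested. In bulk bone, more cells of a type and more RNA per cell cannot be told apart, and every fold change is relative to the bulk of genes.

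**Figure D1:**
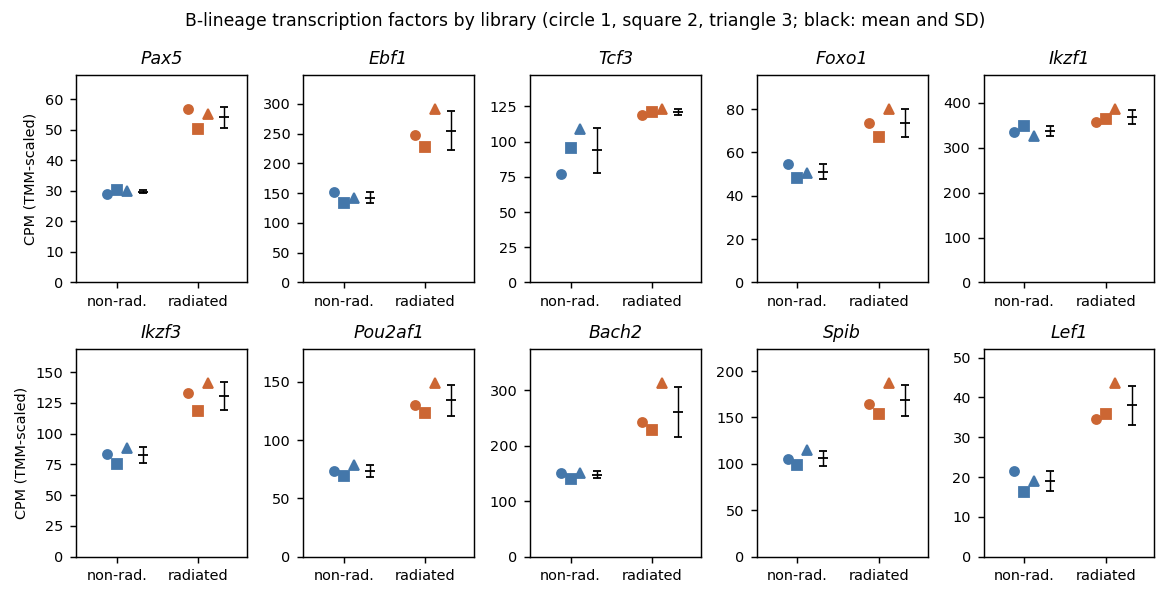
Expression of the 10 B-lineage transcription factors in each library, in TMM-scaled CPM from 0 on each y axis, with non-radiated libraries in blue and radiated libraries in orange; the symbol gives the library number and the black mark the group mean with its SD (n = 3). All radiated points lie above all non-radiated points, with the gap smallest for Ikzf1 (326 to 348 against 357 to 386 CPM) and Tcf3.

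Ebf1, the pioneer factor that opens B-lineage chromatin (ENSMUSG00000057098, chromosome 11, 44617317 to 45008091), was at 152, 133 and 141 CPM in non-radiated libraries 1, 2 and 3 and at 248, 227 and 291 CPM in radiated libraries 1, 2 and 3. Radiated library 3 was the highest and non-radiated library 2 the lowest. The group means were 142 ± 9.41 and 255 ± 32.6 CPM (SD, n = 3 each), or 0.84 ± 0.09 (SE) as log2 fold change, with an adjusted p of 0.000791 by edgeR. Pax5, the factor that commits cells to the lineage (ENSMUSG00000014030, chromosome 4, 44531145 to 44710487), was at 29.2, 30.2 and 30.0 CPM in the non-radiated and 56.8, 50.2 and 55.3 CPM in the radiated libraries. The non-radiated libraries were almost level, and the smallest radiated value was well above them. Its log2 fold change was 0.86 (95% interval 0.71 to 1.01, edgeR adjusted p 8.61e-05). The level of Pax5 per level of Ebf1, both per kilobase of gene model, was 0.760, 0.897 and 0.840 in the non-radiated and 0.908, 0.874 and 0.752 in the radiated libraries, so that the pair rose side by side and the ratio overlapped between groups (two-sided exact permutation p 0.8, adjusted 0.8 over 6 ratios).

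Of the factors that act upstream of Ebf1 and Pax5, Foxo1 alone passed the test. Foxo1, a forkhead factor that supports Il7r and Rag gene expression (ENSMUSG00000044167, chromosome 3, 52268336 to 52353221), was at 54.8, 48.1 and 50.7 CPM in the non-radiated and 73.7, 67.1 and 80.0 CPM in the radiated libraries. The groups did not overlap, and edgeR gave a log2 fold change of 0.52 ± 0.08 (SE) at adjusted p 0.00383. A row on the same strand inside Foxo1, RP24-337A16.2, held counts equal to 25.0% of those of Foxo1. Reads shared with it could have been left out or split, so the level of Foxo1 is uncertain.

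Tcf3, which encodes the E2A proteins (ENSMUSG00000020167, chromosome 10, 80409514 to 80433647), was at 77.0, 95.1 and 109 CPM in the non-radiated libraries. In the radiated libraries it was at 119, 121 and 123 CPM. The non-radiated values were spread widely and the radiated values were close together. The log2 fold change was 0.37 (95% interval 0.13 to 0.61, edgeR adjusted p 0.0692), and with the library number as a block it passed the test (0.38, adjusted p 0.0273). In the blocked fit 9 members and 8.90% of all genes were called, 5.51% as higher. Tcf3 passed as well without non-radiated library 3 (0.49, adjusted p 0.0155, 4.08% of genes called higher), with DESeq2's Wald test (5.75% called higher) and with no filter on low counts (4.49%).

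Ikzf1, the Ikaros gene (ENSMUSG00000018654, chromosome 11, 11685003 to 11772926), was the most abundant member, at 336, 348 and 326 CPM in the non-radiated and 357, 363 and 386 CPM in the radiated libraries. The groups did not overlap but lay close together. The log2 fold change was 0.13 (95% interval -0.00 to 0.26, edgeR adjusted p 0.235), and it passed in 0 of 16 settings. The upper end of that interval lay below the lower end of the interval of each of the 8 members that rose, the lowest of which was 0.35 for Foxo1. Ikzf3, its lymphoid relative known as Aiolos (ENSMUSG00000018168, chromosome 11, 98464902 to 98546031), was at 83.4, 75.7 and 88.7 CPM in the non-radiated and 133, 118 and 141 CPM in the radiated libraries. Its rise of 0.66 in log2 units (SE 0.08, adjusted p 0.00142 by edgeR) left no overlap. Per kilobase, the level of Ikzf3 relative to Ikzf1 was 0.164, 0.143 and 0.180 in the non-radiated libraries and 0.246, 0.214 and 0.241 in the radiated libraries. The 2 groups did not overlap in this ratio (two-sided exact permutation p 0.1, the smallest that 3 against 3 can give, adjusted 0.12 over 6 ratios). An exact permutation within the 3 number-matched pairs gave a p of 0.25, the smallest that it can give, for this ratio and for those of 4 other pairs of genes given later.

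Pou2af1, which encodes the coactivator OBF-1 that binds Oct factors on immunoglobulin promoters (ENSMUSG00000032053, chromosome 9, 51213690 to 51240079), was at 73.1, 68.9 and 79.0 CPM in the non-radiated and 130, 123 and 149 CPM in the radiated libraries. No values overlapped, and edgeR gave a log2 fold change of 0.86 ± 0.08 (SE) at adjusted p 0.000295. Spib, an Ets factor of B cells and plasmacytoid dendritic cells (ENSMUSG00000008193, chromosome 7, 44525995 to 44532071), was at 105, 98.9 and 115 CPM in the non-radiated libraries. Its radiated values were 165, 154 and 187 CPM. Both groups were evenly spread, and edgeR gave a log2 fold change of 0.66 ± 0.08 (SE) at adjusted p 0.00159.

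Bach2, a repressor that delays plasma cell differentiation (ENSMUSG00000040270, chromosome 4, 32238804 to 32586108), was at 151, 141 and 151 CPM in the non-radiated and 243, 228 and 312 CPM in the radiated libraries. Radiated library 3 stood well above the other two. edgeR gave a log2 fold change of 0.82 ± 0.11 (SE) at adjusted p 0.00211, and without radiated library 3 the value was 0.67, still called, as were 4.85% of all genes in the upward direction. Rows on the same strand inside Bach2, Bach2it1 and Gm24371, held counts equal to 8.41% and 2.33% of its own. Lef1, the Wnt-responsive factor of early B and T precursors (ENSMUSG00000027985, chromosome 3, 131110471 to 131224356), was the least abundant member, at 21.6, 16.3 and 19.1 CPM in the non-radiated and 34.5, 35.9 and 43.5 CPM in the radiated libraries. All radiated values were above all non-radiated ones, and the log2 fold change was 0.996 (95% interval 0.73 to 1.27, edgeR adjusted p 0.00133). This was the largest point estimate of the 10, with an interval that overlapped those of the other members that rose except Foxo1. The remaining overlapping rows of the table held at most 5.37% of a member's counts, and whether the counting used strand is not stated.

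Per kilobase of gene model, the order of levels in the non-radiated femur was Ikzf1 (58.2 ± 1.95 CPM per kilobase, SD, n = 3), Spib (37.4 ± 2.87), Pou2af1 (28.7 ± 1.98), Tcf3 (23.2 ± 3.97), Bach2 (14.9 ± 0.618), Ebf1 (14.6 ± 0.964), Pax5 (12.1 ± 0.224), Ikzf3 (9.44 ± 0.747), Foxo1 (5.91 ± 0.388) and Lef1 (2.20 ± 0.302). Neighbours whose ranges overlapped were Pou2af1 with Tcf3 and Bach2 with Ebf1. The order of the means was the same in the radiated femur. There Ikzf1 (63.8 ± 2.66) and Spib (59.3 ± 5.84) overlapped, as did Spib with Pou2af1 (52.3 ± 5.10), Tcf3 with Bach2, and Bach2 with Ebf1.

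Since the groups did not overlap for any of the 10 members, any pairing of libraries must show all of them as higher. Within number-matched pairs the log2 ratios ran from 0.06 for Ikzf1 in pair 2 to 1.19 for Lef1 in pair 3. Spib (0.65, 0.64 and 0.70) and Ikzf3 (0.67, 0.64 and 0.67) were nearly constant over the pairs. Ratios for Tcf3 were 0.63, 0.35 and 0.18, and those for Lef1 0.68, 1.14 and 1.19, in pairs 1, 2 and 3. Radiated library 3 was the highest radiated library for 9 members, all but Pax5, and radiated library 2 was the lowest for 7. Radiated library 2 was also the library with the most muscle transcript. With the summed muscle markers as a covariate 8 members passed the test, against 3.28% of all genes called higher, and Pax5 and Bach2 had log2 fold changes of 0.92 and 1.02.

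Each transcription factor family was then set beside its other genes (its paralogs). Of 19 paralogs 17 passed the filter on low counts, and none was called by edgeR, with 2 higher and 3 lower at an unadjusted p under 0.05. DESeq2's Wald test called 2 and limma-voom 1. With the library number as a block edgeR called 2 as higher, Tcf7l2 (log2 fold change 0.32, adjusted p 0.0492; 0.31 and 0.0510 unblocked) and Spic (0.41, adjusted p 0.0328; 0.40 and 0.0741 without it). Their median log2 fold change was -0.04, against 0.74 for the members and 0.00 for all genes.

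The best-expressed relatives were measured with intervals narrow enough to compare. Ebf3, the stromal Ebf gene, was at 38.3 ± 3.56 CPM in the non-radiated and 37.3 ± 1.11 CPM in the radiated libraries (SD, n = 3 each), a log2 difference of -0.04 with a 95% interval of -0.21 to 0.14. For Tcf4 and Tcf12, the other E protein genes, the log2 differences were 0.02 (-0.13 to 0.18) and 0.07 (-0.08 to 0.22). Foxo3 stood at -0.15 (-0.30 to 0.00) and Bach1 at -0.15 (-0.26 to -0.04). Spi1, the myeloid and lymphoid relative of Spib, stood at -0.10 (-0.34 to 0.13) and Ikzf2 at -0.22 (-0.39 to -0.05). The intervals of Ebf3, Foxo3, Bach1, Spi1 and Ikzf2 lay wholly below those of Ebf1, Foxo1, Bach2, Spib and Ikzf3, while those of Tcf4 and Tcf12 overlapped that of Tcf3. Not every relative was compared: Spic and Tcf7l2, left out here, had log2 fold changes of 0.40 and 0.31. Tcf7l1, also left out, was higher in all 16 settings and called in 0. Of the 17 tested paralogs 8 had log2 fold changes above 0 and 9 below. Under library totals alone, a scaling that moved the median of all genes to 0.19, the signs of Ebf3, Foxo3, Bach1 and Spi1 turned positive, with log2 fold changes of at most 0.16. Ebf2, Ebf4, Pax8 and Ikzf4 were under 2 CPM and their intervals were too wide to compare, and Pax2 was at 0 counts in all libraries. Among the 17 tested paralogs Ebf2 had the largest log2 fold change, 0.86. It was higher in all 16 settings and called in 1, library totals alone.

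Ratios taken within a library do not depend on the scaling. Bach2 per Bach1, per kilobase, was 0.779, 0.705 and 0.760 in the non-radiated and 1.37, 1.25 and 1.78 in the radiated libraries. Spib per Spi1 was 1.95, 1.43 and 1.73 against 2.55, 2.64 and 3.52. Lef1 per Tcf7, the T-lineage relative, was 1.15, 0.790 and 0.798 against 1.32, 1.46 and 2.07. In each of these 3 ratios all radiated libraries were above all non-radiated ones, with a two-sided exact permutation p of 0.1 each (adjusted 0.12 over 6 ratios). Pou2af1 per Pou2f2, the Oct factor gene of B cells, was 10.5, 9.57 and 9.05 against 13.3, 12.5 and 13.9, again without overlap and at the same p.

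**Figure D2:**
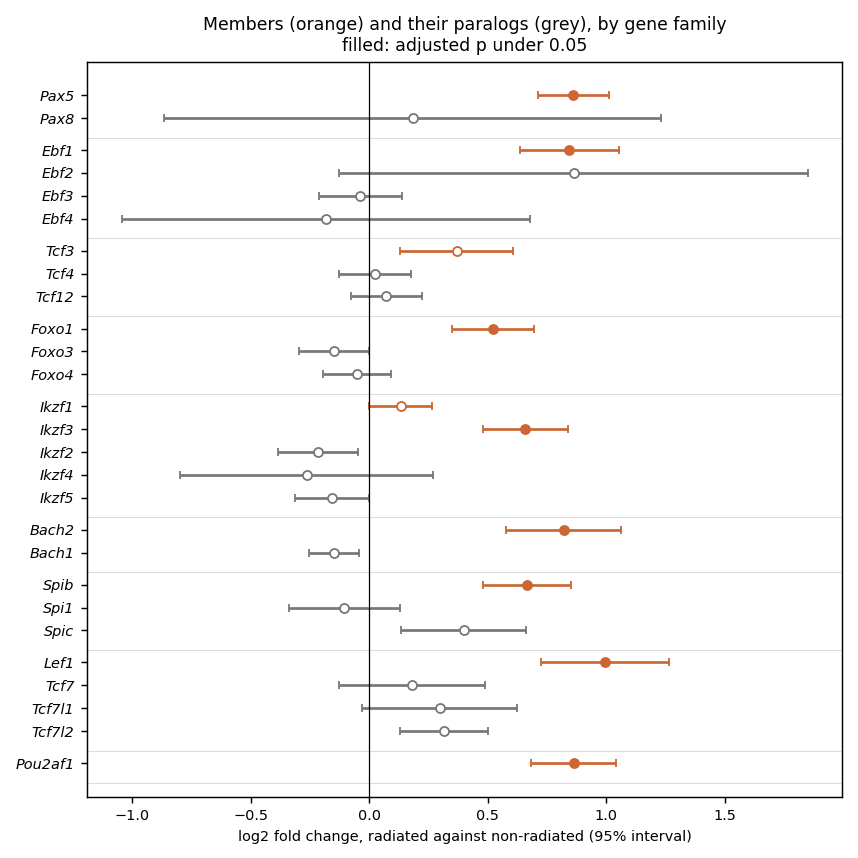
Log2 fold changes between radiated and non-radiated femur (x axis) with 95% intervals from edgeR for the 10 members (orange) and their 17 tested paralogs (grey), grouped by gene family; filled points passed the adjusted threshold of 0.05. The filled points are the 8 members that rose, while all paralogs are open and mostly lie near 0, with Ebf2 furthest right at 0.86.

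Among 25 other regulators of lymphoid development 6 were called higher and 0 lower (0 lower also at an unadjusted p under 0.05), with a median log2 fold change of 0.09. Irf4, which acts with Spib and Spi1 at light chain genes, rose by 0.78 (SE 0.11, edgeR adjusted p 0.00318). Aff3 and Bcl7a, lymphoid nuclear factors, rose by 0.60 and 0.71, and Ets1 by 0.28 (edgeR adjusted p 0.0182). The Id genes, whose products bind and block E proteins, did not pass: Id1 was at 0.04, Id2 at -0.16, Id3 at 0.32 and Id4 at 0.38 on the log2 scale, with edgeR adjusted p of 0.905, 0.340, 0.165 and 0.128.

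Of 28 B-cell surface and signalling genes 22 were called higher and none lower (0 lower at an unadjusted p under 0.05), with a median log2 fold change of 0.61. Of the 6 others, Btk and Cd24a had log2 fold changes below 0, at -0.10 and -0.08. Igll1 and Vpreb1, which encode the surrogate light chain and are activated by Ebf1 and the E proteins, rose by 1.07 and 1.12, and Vpreb3 and Cd79a by 0.93 and 0.76. In the list of the pro-B and pre-B stages 9 of 10 genes were called higher, with a median of 0.75, among them Dntt at 0.60. The mature stage list had 9 of 12 called higher and a median of 0.51, with Ighd at 0.58, Cd22 at 0.66, Cd37 at 0.36 and Tnfrsf13c at 0.60. The stage lists share genes with the longer list, and the difference between them was not tested. Beside these medians, the log2 fold changes of Lef1, Pou2af1, Pax5, Ebf1 and Bach2 were above the median of each of the 3 lists, and those of Foxo1, Tcf3 and Ikzf1 were below the medians of the first 2.

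To set the members against the B-cell genes of the same libraries, the counts were refitted with library sizes that made the mean log2 count of the 28 B-cell genes equal in all libraries. On that scale 73.0% of all genes were called, 71.4% as lower and 1.57% as higher, since the B-cell genes themselves had risen. On it 5 members stayed higher: Lef1 by 0.43 (edgeR adjusted p 0.00493), Pou2af1 by 0.29 (0.00930), Pax5 by 0.29 (0.0129), Ebf1 by 0.27 (0.0169) and Bach2 by 0.24 (0.0472), with the adjusted p in brackets for the last 4. With that many genes called, the adjustment changed p-values little: the unadjusted edgeR p was 0.0343 for Bach2 and 0.0109 for Ebf1. Log2 differences of 0.09 for Spib (95% interval -0.10 to 0.28), 0.08 for Ikzf3 (-0.10 to 0.26), -0.05 for Foxo1 (-0.22 to 0.12) and -0.21 for Tcf3 (-0.49 to 0.07) did not pass. On the same scale Ikzf1 was lower, at -0.44 (SE 0.10, edgeR adjusted p 0.00182), as most of the table was.

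The calls on this scale depended on the genes taken as reference and on single libraries. Against the 10 pro-B and pre-B genes no member was called higher (1.23% of all genes were) by edgeR, and Tcf3 and Ikzf1 were called lower (77.2% of all genes were). Lef1 (0.28, adjusted p 0.0622) and Pax5 (0.14, adjusted p 0.331) did not pass the test. Against the 12 mature stage genes the same 5 members were called higher, with 2.19% of all genes. With the library number as a block the share of all genes called higher was 1.54%. Lef1 and Pou2af1 kept their calls in each of the 6 fits that left out a library, in which 1.30%, 1.38% and 1.09% of all genes were called higher without non-radiated libraries 1, 2 and 3, and 1.57%, 0.997% and 2.22% without radiated libraries 1, 2 and 3. The call of Pax5 was lost without non-radiated library 1 (adjusted p 0.0567) or radiated library 1 (0.0621), that of Ebf1 without non-radiated library 3 (0.0543) or radiated library 3 (0.0760), and that of Bach2 without any one of the non-radiated libraries or without radiated library 3 (0.0870 to 0.225).

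**Figure D3:**
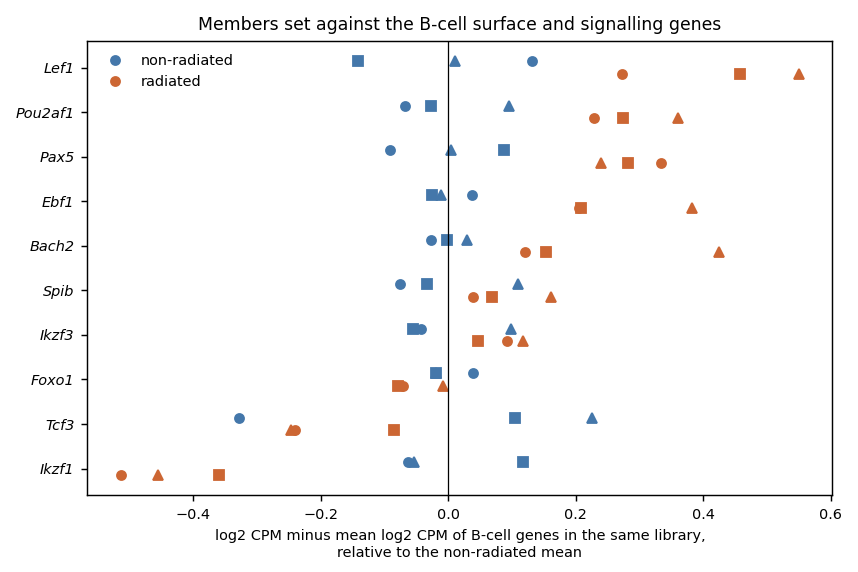
For each member (rows, ordered by the fitted difference) the log2 CPM in a library minus the mean log2 CPM of 28 B-cell genes in that library, shown relative to the non-radiated mean; blue points are non-radiated and orange points radiated libraries, with circle, square and triangle for libraries 1, 2 and 3. The fitted difference is largest for Lef1, at the top, and lowest for Ikzf1, at the bottom, whose radiated points lie to the left. On this scale 71.4% of all genes were called lower. The groups overlap for Spib, Ikzf3, Foxo1 and Tcf3. The share of all genes without overlap on this scale was not counted.

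Markers of other cells that can express the members were measured in the same fit, and their part in the members' rise was not tested. No marker in these lists was at 0 in any library. T cell markers, relevant to Lef1, Bach2 and Ikzf3, had a median log2 fold change of 0.40, with 2 of 15 called higher, none lower, and 8 higher at an unadjusted p under 0.05. Lck rose by 0.49 (edgeR adjusted p 0.0108) and Cd247 by 0.60 (0.0428, and 0.0619 with the library number as a block). The summed level of the list was 69.0 to 77.8 CPM in the non-radiated and 89.4 to 102 CPM in the radiated libraries. The defining T cell gene Cd3e was at 2.30 ± 0.676 CPM in the non-radiated and 2.87 ± 0.308 CPM in the radiated libraries (SD, n = 3 each), and Tcf7 at 6.40 ± 0.804 and 7.27 ± 0.802 CPM.

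Plasmacytoid dendritic cell markers, relevant to Spib, went the other way: 3 of 10 were called lower and 0 higher (1 higher at an unadjusted p under 0.05), with a median of -0.29. Siglech was at 23.7 ± 1.53 CPM in the non-radiated and 12.9 ± 0.948 CPM in the radiated libraries, a fall of 0.87 in log2 units (SE 0.09, adjusted p 0.000477 by edgeR), and Ccr9 fell by 0.91 (edgeR adjusted p 0.00684). The third was Runx2, which osteoblasts express as well. All 3 calls were lost under library totals alone, where the only marker called was Cox6a2, as higher. All 12 skeletal muscle markers were called higher in that setting too, and a part of muscle in the Cox6a2 call was not tested. The summed level of the plasmacytoid dendritic cell list was 314 to 328 CPM in the non-radiated and 277 to 292 CPM in the radiated libraries.

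Of 9 marrow stroma markers, relevant to Ebf1, 1 was called higher (Esm1, 0.37) and 2 lower (Lepr, -0.48, and Pdgfra, -0.63), with a median of -0.15 and summed levels of 1753 to 1840 and 1532 to 1703 CPM. All 3 calls were lost under library totals alone. Adipocyte markers, relevant to Ebf1 and Foxo1, had a median of 2.05, with 9 of 10 called higher, among them Cfd (3.03) and Plin4 (3.16), and summed levels of 242 to 264 and 454 to 574 CPM. Of 8 plasma cell markers 3 were called higher, Slamf7 (0.88), Irf4 (0.78, also in the list of regulators) and Mzb1 (0.78), and none lower. The median of that list was 0.40, and 3 of its 8 markers had log2 fold changes below 0, the lowest at -0.50. Its summed levels overlapped, at 310 to 510 and 373 to 517 CPM. Stem and progenitor markers had 5 of 9 called lower and 0 higher (1 higher at an unadjusted p under 0.05), with Slamf1 at -1.24 and Flt3 at -0.65. Under library totals alone Slamf1 kept its call, the other 4 lost theirs and Procr was called higher. Osteoblast markers, which mark the bone in the samples, had 4 of 10 called lower and 0 higher (0 higher at an unadjusted p under 0.05), with summed levels of 4657 to 7015 and 3458 to 4388 CPM. The number called lower was 7 with the library number as a block, 8 with no filter on low counts, 1 with the muscle covariate and 2 under library totals alone.

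**Figure D4:**
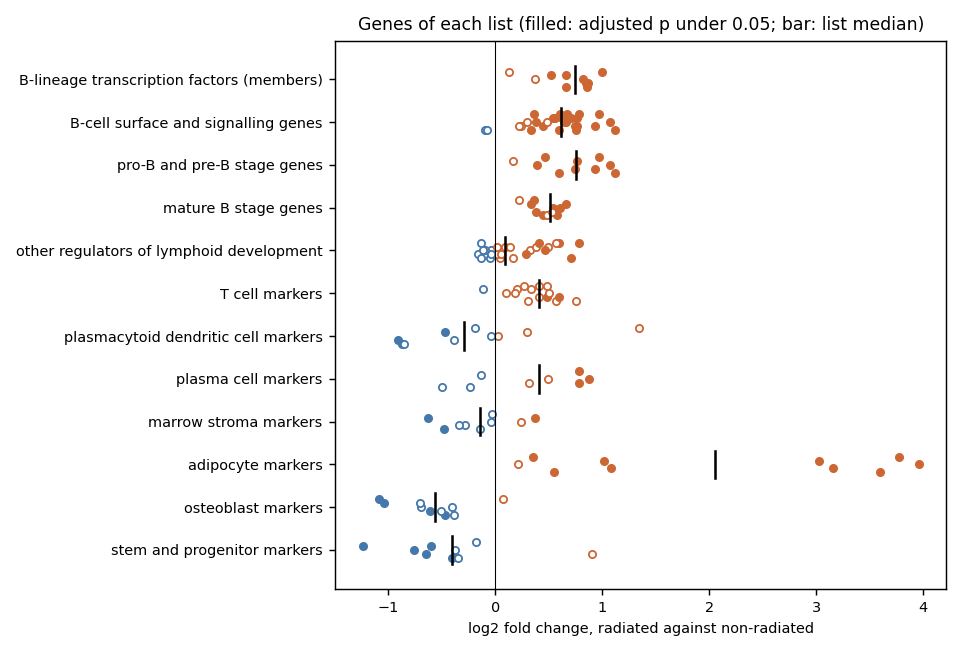
Log2 fold change between radiated and non-radiated femur (x axis) for each tested gene of the members and of 11 gene lists (rows); orange points are higher and blue points lower in radiated femur, filled points passed the adjusted threshold of 0.05, and the black bar is the list median. The medians of the members and of the B-cell lists lie to the right of 0, the plasmacytoid dendritic cell, stem cell and osteoblast medians to the left, and the adipocyte median at 2.05.

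The genes with a profile most like that of Pax5 were found by the root mean square difference between log2 CPM profiles over the 6 libraries, each centred on its own mean, among 11904 other genes whose mean level reached 5 CPM. The nearest 5 were Svep1 (0.0591), Akap12 (0.0598), Pafah1b3 (0.0645), Trem2 (0.0702) and Gm19980 (0.0754). Akap12, for instance, went from 87.7 to 160 CPM and Trem2 from 13.3 to 22.7 CPM between the group means. Of the other members Pou2af1 ranked 12, Ebf1 22, Ikzf3 46, Bach2 52 and Spib 55, while Lef1 and Foxo1 ranked 186 and 197, Tcf3 632 and Ikzf1 1926.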

How the data were processed

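Per the submitters' processing notes, STAR 2.5.2b, Subread and featureCounts were used with build mm10; their settings, the annotation and the use of strand are not given in the sources used here. Library preparation used a stranded mRNA kit, per the labels' protocols. The counts deposited by the authors are raw whole numbers per gene, 1 column per library. The RPKM values deposited by the authors are scaled by a constant not stated in the file headers and were not used. Coordinates are those of the table.

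The edgeR function filterByExpr (count 10, total 15) left 18757 of 43346 genes, all 10 members among them. They were scaled by TMM and tested with edgeR 4.0.16 (R 4.3.3; glmQLFit, glmQLFTest, group as the only term, 3 against 3 libraries). Adjusted p-values are Benjamini-Hochberg values across every tested gene, and the standard error is the log2 fold change divided by the square root of F. Levels per kilobase are CPM divided by the table's gene length. The refit against B-cell genes leaves out the error of that scaling. Lists are described by counts and medians, with no set test. The members and lists were chosen with earlier results of these data known. Every member was named, with up to 4 genes per list by smallest p, the 5 profile neighbours of Pax5, and paralogs and Id genes; Cd3e, Btk, Cd24a, Cox6a2, Procr and the overlapping rows were named outside that rule, after their values were seen. Of the list entries 1, Jchain, was matched by gene ID. DESeq2 1.42.0 and limma 3.58.1 served as alternatives. The scripts were tested on simulated data.

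Replicates within a group differed by more than sampling noise (chi-square per degree of freedom 17.8 to 631). Both groups carry the numbers 1 to 3. Deviations from the group means correlated across genes at 0.166, 0.277 and 0.187 for the same number and from -0.170 to -0.008 for different numbers. Since the deviations of a group sum to 0 for each gene, positive values for the same number push the others below 0. Summed muscle markers also ranked the libraries alike in both groups. They stood at 192, 342 and 167 CPM in non-radiated and 753, 2479 and 196 CPM in radiated libraries 1, 2 and 3. The part of muscle in these correlations was not tested, and they do not show that a pair came from 1 mouse. Samples of one number were treated as pairs in the blocked fit, the pair ratios and the within-pair permutation, from the data and not from a label. The main fit did not use the pairs. The blocked fit was an alternative, besides other scalings, filters, tests, a muscle covariate and leaving out each library.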

Additional observations from a re-analysis of the deposited data

How the results depend on the processing

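The 8 members called higher kept their direction and their call in all 15 alternatives (other scalings, filters, tests, the replicate block, the muscle covariate and leaving out each library). The count of called members was 8 or 9 throughout, Tcf3 being the ninth with no filter, with DESeq2's Wald test (adjusted p 0.00462), with the replicate block and without non-radiated library 3. With the replicate block 1670 genes were called in the whole table, against 1463, and besides Tcf3 it changed no member's call. Leaving out 1 library moved that total to between 764 and 1376, with the lowest values without radiated library 1 (764), non-radiated library 2 (819) and non-radiated library 1 (905).

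Set against B-cell genes, 6 members were called (Ikzf1 as lower, the others as higher), as were 73.0% of all genes. The count was 4 to 6 when a library was left out, with 66.0% to 72.7% of all genes called. It was 6 with the replicate block (73.1% of all genes). With the pro-B and pre-B genes as the reference it was 2 (Ikzf1 and Tcf3, both lower), with 78.4% of all genes called. That reference turned the differences of Ikzf3 and Spib to -0.0649 and -0.0628, and the mature stage genes turned that of Foxo1 to 0.0515. The cause was not tested.

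List counts changed by over 1.5 times most often under library totals alone (T cell markers 0 in place of 2, marrow stroma 0 in place of 3, plasmacytoid dendritic cell markers 1 higher in place of 3 lower, stem and progenitor markers 1 higher and 1 lower in place of 5 lower, mature B stage genes 5 in place of 9, other regulators 3 in place of 6, osteoblast markers 2 in place of 4). The T cell count was 0 or 1 in 9 alternatives, among them 0 without radiated library 1. The mature B stage count was 5, and that of other regulators 3, without non-radiated library 2, and the mature B stage count was 5 without radiated library 1. Osteoblast markers numbered 7 with the replicate block, 8 with no filter and 1 with the muscle covariate. Muscle markers, 0 of which were called, numbered 12 under library totals alone and with no filter, 10 with the replicate block, 9 without radiated library 3 and 1 without radiated library 1. Paralogs called numbered 1 or 2, in place of 0, in 8 alternatives. The within-library ratios had leave-one-out and within-pair alternatives that were added after seeing the data. Leaving out 1 of 3 libraries cannot move a group mean by 1 SD, so moves smaller than that are no check. With a library left out, the log2 difference of Bach2 per Bach1 ran from 0.81 to 1.06. That of Pax5 per Ebf1 ran from -0.04 to 0.10.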
